A study of Mus musculus with 6 samples.

Results

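The globin and erythroid genes described here are 9 genes of red blood cells, measured in samples of neurons from the preBötzinger complex (preBötC), the brainstem site that generates the breathing rhythm. They are the adult beta globins Hbb-bs and Hbb-bt, the adult alpha globins Hba-a1 and Hba-a2, the embryonic globins Hbb-y, Hbb-bh1 and Hba-x, and the red cell genes Alas2 and Slc4a1. They are 9 of the 49568 gene names in the series, taken by name, and they were chosen by their high level in the first non-Dbx1 sample. The levels that chose them are therefore given as a description, without a test. Of the 9 genes, 6 had a non-zero value in at least 3 of the 6 samples and 3 were listed at 0 throughout.

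RNA was sequenced from 3 samples of Dbx1 neurons and 3 samples of non-Dbx1 neurons, each of 15 neurons drawn one by one into a micropipette from a slice of a different mouse at postnatal day 2. All 6 mice were offspring of Dbx1CreERT2 mothers and Rosa26tdTomato fathers whose dams had been given tamoxifen in gestation, so both groups share the alleles and the treatment. Dbx1 neurons carried tdTomato, which marks descendants of progenitors that expressed Dbx1, and non-Dbx1 neurons were neuronal somata without that fluorescence. Recombination depends on when tamoxifen acts, so lack of tdTomato does not by itself show that a neuron had no Dbx1-expressing progenitor. Values are RPKM, reads per kilobase of exon scaled to the reads on genes in the sample, and between 6464674 and 9432958 reads per sample fell on genes. All 8 neuron markers were above 0 in all 6 samples, with a summed RPKM between 1373 and 2244. In samples of pooled cells, fewer cells of a type and less RNA per cell cannot be told apart.

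Haemoglobin is a tetramer of alpha and beta globin chains, each holding a haem group, and it fills red blood cells. Mice carry their beta and alpha globin genes in separate clusters, in which the embryonic genes serve the primitive red cells of the yolk sac and the adult genes serve the definitive red cells made later. Alas2 is the erythroid 5-aminolevulinate synthase, which catalyses the initial step of haem synthesis, and Slc4a1 is band 3, the anion exchanger of the red cell membrane. Low levels of globin RNA are also known in some neurons and glia.

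In the annotation GENCODE vM21 of GRCm38, Hbb-bt (ENSMUSG00000073940, chr7:103812524-103813996), Hbb-bs (ENSMUSG00000052305, chr7:103826534-103828096), Hbb-bh1 (ENSMUSG00000052217, chr7:103841637-103843164) and Hbb-y (ENSMUSG00000052187, chr7:103851749-103853216) lie side by side on the minus strand. On the plus strand of another chromosome lie Hba-x (ENSMUSG00000055609, chr11:32276400-32278116), Hba-a1 (ENSMUSG00000069919, chr11:32283511-32284465) and Hba-a2 (ENSMUSG00000069917, chr11:32296489-32297298). Slc4a1 (ENSMUSG00000006574, chr11:102348824-102366203, minus strand) and Alas2 (ENSMUSG00000025270, chrX:150547375-150570638, plus strand) lie elsewhere.

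The adult genes of a cluster are near-copies, which limits how far reads of about 50 bases can tell them apart. The coding sequences of Hbb-bs and Hbb-bt, 441 bases each, differed at 1 base, and those of Hba-a1 and Hba-a2, 426 bases each, likewise differed at 1 base. A read that covers that base and lies within the coding sequence is assigned by it alone. The stretches of 60 coding bases around it are therefore shown, with the differing base in capitals. They were read from GENCODE vM21 at chr7:103826668-103826727 and chr7:103812659-103812718 on the minus strand, and at chr11:32284313-32284372 and chr11:32297130-32297189 on the plus strand.
Hbb-bs: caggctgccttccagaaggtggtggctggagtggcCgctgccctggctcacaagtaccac
Hbb-bt: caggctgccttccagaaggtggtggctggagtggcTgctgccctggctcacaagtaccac
Hba-a1: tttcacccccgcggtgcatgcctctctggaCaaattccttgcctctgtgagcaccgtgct
Hba-a2: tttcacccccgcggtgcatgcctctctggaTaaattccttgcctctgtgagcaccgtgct

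Of the 716 different stretches of 50 bases in Hbb-bs transcripts, 53.2% also occurred in Hbb-bt, and of the 654 in Hbb-bt 58.3% occurred in Hbb-bs. The alpha genes shared more, 72.3% of 761 for Hba-a1 and 89.3% of 616 for Hba-a2, each with the other gene. Reads that align to several places were not assigned to a gene, so the deposited values of all 4 adult globins come from the rest of their sequence. The split of reads between near-copies is therefore uncertain. None of the 50-base stretches of Hbb-y, Hbb-bh1, Hba-x or Slc4a1 occurred in transcripts of other genes. Compared with Hbb-bs, the coding sequence of Hbb-y was 74.4% identical and that of Hbb-bh1 73.9%, and Hba-x was 61.7% identical to Hba-a1. Alas2 shared 11.5% of its 2398 stretches with Apex2 and Mir3620, which overlap it on the opposite strand, and the counting did not use strand.

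The adult globins were detected in all 6 samples, were lowest in the Dbx1 samples and were far higher in non-Dbx1 replicate 1 than in any other sample. Hbb-bs, the more abundant beta globin, measured 46.1, 119.9 and 235 RPKM over Dbx1 replicates 1 to 3, against 7238, 507 and 359 RPKM over non-Dbx1 replicates 1 to 3. Hbb-bt, its neighbour and near-copy, came to 13.1, 23.4 and 92.2 RPKM over the Dbx1 replicates, against 5589, 231 and 116 RPKM over the non-Dbx1 replicates. For both beta globins no non-Dbx1 sample was as low as a Dbx1 sample, and non-Dbx1 replicate 1 was 14.3-fold above the next highest sample for Hbb-bs and 24.2-fold for Hbb-bt. In that sample Hbb-bs ranked 2 and Hbb-bt ranked 3 among all genes by RPKM. In Dbx1 replicate 1 they ranked 1225 and 3578.

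Hba-a1, the alpha globin with the higher RPKM, came to 22.1, 54.8 and 135 RPKM over the Dbx1 replicates, against 828, 341 and 189 RPKM over the non-Dbx1 replicates. Hba-a2, its near-copy, came to 8.28, 19.5 and 42.8 RPKM over the Dbx1 replicates, against 291, 119 and 68.3 RPKM over the non-Dbx1 replicates. The alpha globins were also highest in non-Dbx1 replicate 1, but by 2.43-fold for Hba-a1 and 2.45-fold for Hba-a2 over the next sample, non-Dbx1 replicate 2.

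All 4 adult globins put the 6 samples in the same order, from Dbx1 replicate 1, the lowest, through Dbx1 replicates 2 and 3 and non-Dbx1 replicates 3 and 2 to non-Dbx1 replicate 1. Neighbours in this order were close at the middle. From Dbx1 replicate 3 to non-Dbx1 replicate 3, Hbb-bs went from 235 to 359 RPKM and Hbb-bt from 92.2 to 116 RPKM, a step smaller than the spread among the Dbx1 samples. Among the 5 samples other than non-Dbx1 replicate 1, the highest was 11-fold above the lowest for Hbb-bs, 17.7-fold for Hbb-bt, 15.4-fold for Hba-a1 and 14.4-fold for Hba-a2.

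Group means of Hbb-bs were 133.7 ± 95.2 RPKM (SD, n = 3) in Dbx1 and 2701 ± 3929 RPKM (SD, n = 3) in non-Dbx1 samples, so the SD of the non-Dbx1 group exceeded its mean. L2FC, the Dbx1 minus the non-Dbx1 mean of log2(RPKM + 1), measured -3.31 for Hbb-bs, -4.07 for Hbb-bt, -2.75 for Hba-a1 and -2.73 for Hba-a2. Without non-Dbx1 replicate 1 it measured -1.95, -2.38, -2.19 and -2.17, and the remaining non-Dbx1 samples were still higher than all Dbx1 samples for all 4 genes. The groups were apart in this direction for 923 of the 17614 genes with a non-zero value in at least 3 samples (5.24%), and for 1803 (10.2%) without non-Dbx1 replicate 1. Because these levels chose the genes, nothing further is read from the counts.

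**Figure D1:**
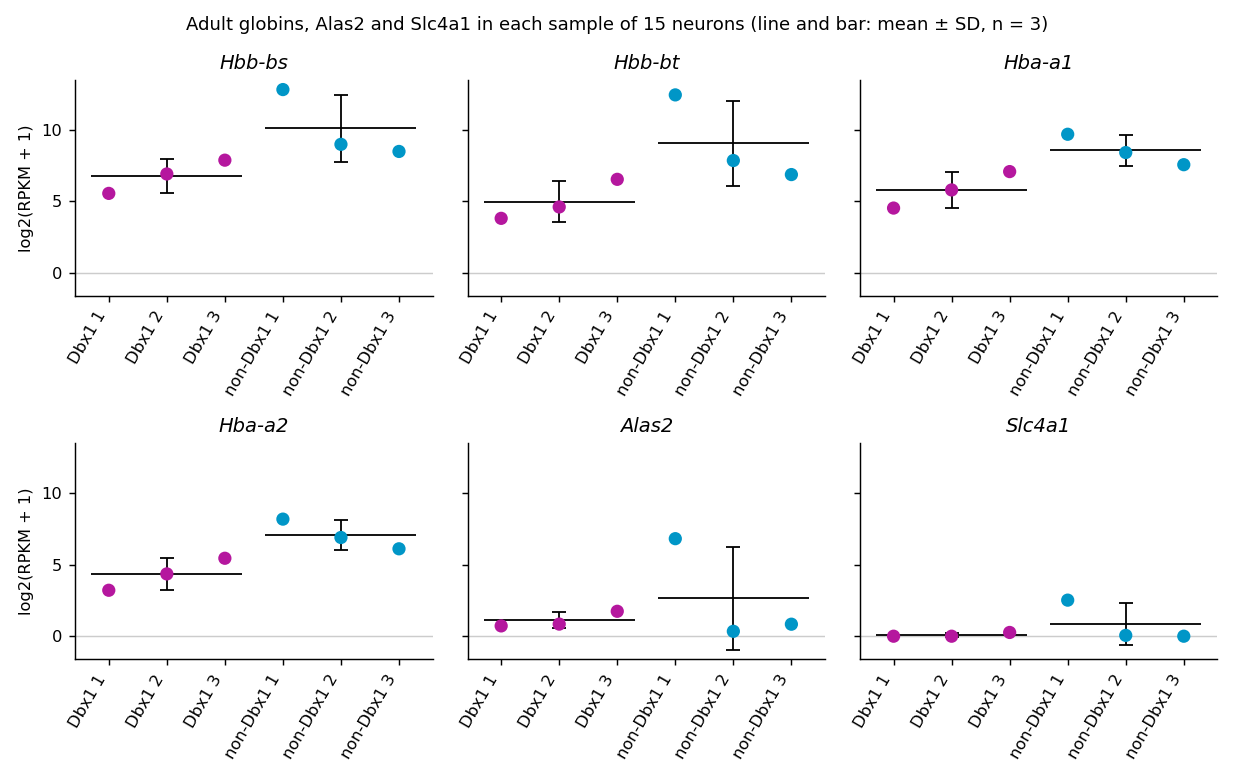
Log2(RPKM + 1) of the 6 genes that were detected, one panel per gene and one point per sample of 15 neurons (magenta, Dbx1; cyan, non-Dbx1), with the group mean as a line and ± SD as a bar (n = 3). The adult globins stand higher in all 3 non-Dbx1 samples than in all 3 Dbx1 samples, while Alas2 and Slc4a1 stand high in non-Dbx1 replicate 1 alone.

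As reads, the 4 adult globins took 98280 of the reads on genes in non-Dbx1 replicate 1, or 1.52% (Wilson 95% interval 1.51% to 1.53%). The same share was 0.139% (0.137% to 0.142%) in non-Dbx1 replicate 2 and 0.0874% (0.0855% to 0.0893%) in non-Dbx1 replicate 3. In the Dbx1 samples it was 0.0108% (0.0101% to 0.0115%), 0.0268% (0.0256% to 0.0280%) and 0.0594% (0.0577% to 0.0613%) for replicates 1 to 3. None of these intervals overlapped another, but they cover counting error only, since reads of amplified cDNA are not independent molecules. The summed RPKM of the 4 genes was 13946 in non-Dbx1 replicate 1 and between 89.6 and 1198 in the other 5 samples, a log2 ratio of 3.54 over the next highest.

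The relation of the globins to each other within a sample was then compared, on reads per kilobase of merged exons, since the lengths behind the deposited values count overlapping exons more than once. The ratio of Hba-a2 to Hba-a1 was nearly the same in all samples, at 0.400, 0.381 and 0.340 in Dbx1 replicates 1 to 3 and 0.376, 0.373 and 0.387 in non-Dbx1 replicates 1 to 3. Hba-a1 has 211 different 50-base stretches found in no other gene and Hba-a2 has 66. The value of this ratio thus also depends on mappable length, and it does not show which alpha globin was more abundant. The ratio of Hbb-bt to Hbb-bs was 0.158, 0.109 and 0.218 over the Dbx1 replicates, against 0.430, 0.253 and 0.180 over the non-Dbx1 replicates. It was highest in non-Dbx1 replicate 1, 1.70-fold above the next sample, and it varied 2.33-fold among the other 5 samples. The beta globin haplotype of each mouse is not given in the sources used here, and reads of another haplotype would be assigned to Hbb-bs and Hbb-bt of mm10 or lost, so ratios that involve the beta globins could also differ with haplotype, which was not tested.

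The alpha to beta ratio set non-Dbx1 replicate 1 apart most plainly. The summed alpha level over the summed beta level was 0.475, 0.466 and 0.516 over the Dbx1 replicates, 0.602 and 0.505 in non-Dbx1 replicates 2 and 3, and 0.0901 in non-Dbx1 replicate 1. Over those 5 samples, whose summed globin RPKM differed 13.4-fold, the ratio stayed within 1.29-fold, and in non-Dbx1 replicate 1 it was 5.17-fold below the lowest of them. When the same reads were divided by the number of 50-base stretches found in no other gene, 608 for beta and 277 for alpha, the ratio was between 1.04 and 1.35 in the other 5 samples and 0.204 in non-Dbx1 replicate 1. The value of the ratio thus depends on how mappable length is treated. This divisor is the same in every sample, so it is no separate check of their order.

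**Figure D2:**
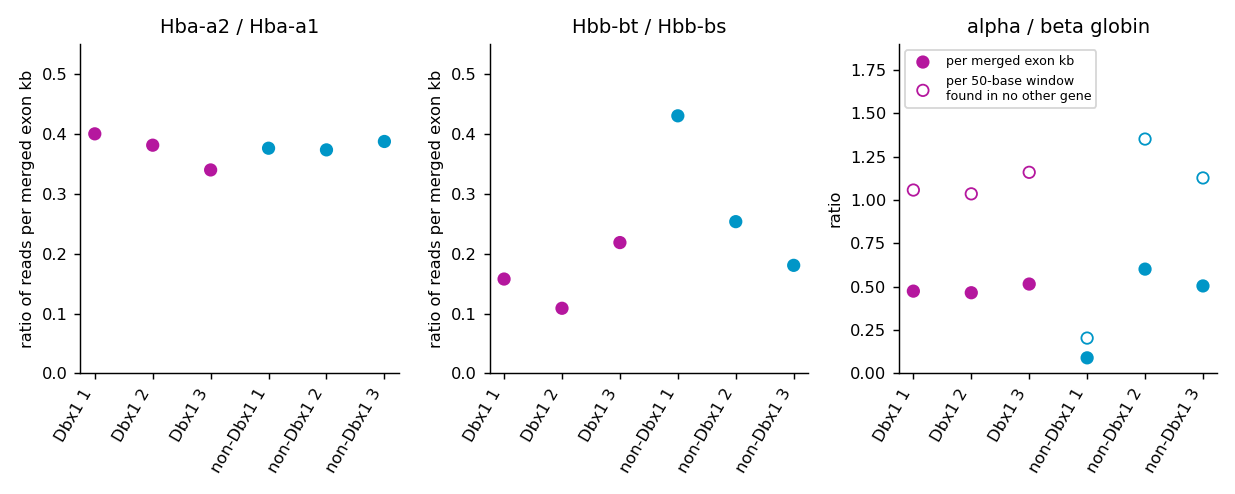
Ratios between globin levels within each sample, for Hba-a2 over Hba-a1, Hbb-bt over Hbb-bs and summed alpha over summed beta (magenta, Dbx1; cyan, non-Dbx1). Filled points are per kilobase of merged exons and open points per 50-base stretch found in no other gene, 2 scalings of the same reads. The alpha to beta ratio of non-Dbx1 replicate 1, at 0.0901 and 0.204, lies below the other 5 samples.

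The embryonic globins were listed at 0 in every sample. These are Hbb-y and Hbb-bh1, beta-like genes of the embryo, and Hba-x, the zeta chain. In the shallowest sample, non-Dbx1 replicate 1, 3 reads would have given 0.733 RPKM for Hbb-y, 0.757 RPKM for Hbb-bh1 and 0.495 RPKM for Hba-x, which is the level that a count of 0 allows. That level is far under the adult globins of the same clusters, which measured at least 8.28 RPKM in every sample.

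Alas2 did not follow the order of the globins. It came to 0.648, 0.799 and 2.35 RPKM over the Dbx1 replicates, against 112, 0.268 and 0.790 RPKM over the non-Dbx1 replicates. These correspond to 2533 reads in non-Dbx1 replicate 1 and 8 to 57 reads in the others. Outside non-Dbx1 replicate 1 the groups overlapped, with the lowest value in non-Dbx1 replicate 2, the sample with the next highest globin level. Non-Dbx1 replicate 1 was 47.8-fold above the next sample, Dbx1 replicate 3.

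Relative to beta globin, Alas2 in non-Dbx1 replicate 1 was in the range of the Dbx1 samples. On merged exon length it came to 8.77 per 1000 of beta globin there, against 9.82, 4.86 and 6.63 in Dbx1 replicates 1 to 3, and 0.341 and 1.51 in non-Dbx1 replicates 2 and 3. The Dbx1 values rest on only 18, 21 and 57 Alas2 reads. Relative to alpha globin it was 97.4 per 1000 in non-Dbx1 replicate 1 and at most 20.7 per 1000 elsewhere.

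Slc4a1 was near the limit of detection outside non-Dbx1 replicate 1. It came to 0, 0 and 0.199 RPKM over the Dbx1 replicates, against 4.75, 0.0405 and 0 RPKM over the non-Dbx1 replicates. That is 177 reads in non-Dbx1 replicate 1, 8 reads in Dbx1 replicate 3 and 2 reads in non-Dbx1 replicate 2. L2FC measured -1.56 for Alas2 and -0.77 for Slc4a1, and without non-Dbx1 replicate 1 it turned to 0.51 and 0.059, so the sign of both rests on that sample.

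The promoters of the 4 adult globins and Alas2 are shown because the adult globins ranked the samples alike and Alas2 did not. Each is the 110 bases before the start that RefSeq gives on GRCm38.p6, read toward the gene. RefSeq promoters were matched by symbol for 7 of the 9 genes. Capitals mark, on either strand, the CCAAT box, the CACCC box, the GATAA motif of GATA factors and the TATAA of a TATA box. The windows are chr7:103827929-103828038 and chr7:103813924-103814033 on the minus strand, and chr11:32283562-32283671, chr11:32296382-32296491 and chrX:150547307-150547416 on the plus strand. They lie partly or wholly within the gene bounds of GENCODE vM21, whose starts differ from those of RefSeq.
Hbb-bs: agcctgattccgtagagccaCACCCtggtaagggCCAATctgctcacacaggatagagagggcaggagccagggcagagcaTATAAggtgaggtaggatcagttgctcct
Hbb-bt: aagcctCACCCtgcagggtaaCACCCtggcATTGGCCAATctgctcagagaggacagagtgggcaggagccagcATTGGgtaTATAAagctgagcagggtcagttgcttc
Hba-a1: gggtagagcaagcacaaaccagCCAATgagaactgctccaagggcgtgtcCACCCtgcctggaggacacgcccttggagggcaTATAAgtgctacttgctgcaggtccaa
Hba-a2: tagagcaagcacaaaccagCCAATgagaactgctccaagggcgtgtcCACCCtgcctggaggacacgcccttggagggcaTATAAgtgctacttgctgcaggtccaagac
Alas2: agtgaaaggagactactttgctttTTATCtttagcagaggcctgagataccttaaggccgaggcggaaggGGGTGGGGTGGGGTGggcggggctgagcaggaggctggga

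Each of the adult globin windows held a TATAA motif, a CCAAT box and a CACCC box on the gene's own strand. TATAA began 27 to 30 bases before the start, CCAAT 75 to 91 bases before it, and CACCC 60 to 104 bases before it. Hbb-bt held a second CACCC and, on the opposite strand, 2 further CCAAT boxes, which there read ATTGG, with 1 of them directly beside the CCAAT on its own strand. Over 32851 RefSeq windows of this length, matches were counted on either strand, unlike the matches on the gene's own strand above. Of those windows, 20.2% held a CCAAT box, 29.6% a CACCC box, 10.9% the TATAA motif and 9.43% the GATAA motif. The Alas2 window held the GATAA motif and 3 CACCC boxes on the opposite strand, printed as TTATC and as GGGTG, and neither of the other motifs. Among the embryonic genes the Hbb-y window held the CCAAT box alone, and that of Hba-x held the other motifs. A match is a description of the letters and not a site of binding.

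Lists of 80 other genes of the red cell and of haem were then examined for the same comparison, with limma on log2(RPKM + 1). Of the 77 with a value, 67 were above 0 in at least 1 sample and 51 could be tested. None passed an adjusted p of 0.1 in either direction, the lowest being 0.912, against 1 gene higher in non-Dbx1 samples (0.00568%) and 0 higher in Dbx1 samples (0%) among the 17614 genes tested. That gene was D930028M14Rik. At an unadjusted p under 0.05, 3 list genes were higher in non-Dbx1 samples and 0 in Dbx1 samples, where 2.48% and 2.73% of all genes tested stood. The median L2FC was -0.11 over the list genes and 0.0089 over all genes tested. Without non-Dbx1 replicate 1, 45 list genes could be tested by limma and 0 had an unadjusted p under 0.05 in either direction. Of all 16578 genes tested there, 480 were higher in non-Dbx1 and 455 in Dbx1 samples at that p. Without Dbx1 replicate 2 the count was likewise 0 in either direction, over 46 list genes. The loss of the 3 genes is thus not particular to non-Dbx1 replicate 1.

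Against the other 5 samples, non-Dbx1 replicate 1 was the highest for 26 of the 67 list genes (38.8%) and for 21.2% of the 27067 genes above 0. It was at least 4-fold above them all, on RPKM + 1, for 4 list genes and for 1.27% of genes, and for Alas2, Hbb-bt, Hbb-bs and Slc4a1 among the 9 genes chosen. Trim58, Isg20 and Ube2l6, which are among these list genes, were named after their values were seen. Trim58, a ubiquitin ligase of late red cell maturation, measured 6.14 RPKM in non-Dbx1 replicate 1 and was listed at 0 in the others. Isg20, an exonuclease, measured 13.4 RPKM there and at most 1.16 RPKM elsewhere. Ube2l6, a conjugating enzyme for the ubiquitin-like ISG15, measured 33.6 RPKM there and at most 7.61 RPKM elsewhere.

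Among the 12 haem synthesis genes, 4 were highest in non-Dbx1 replicate 1. Alad, the enzyme after 5-aminolevulinate synthase, measured 68.8 RPKM there and 17.3 to 34.03 RPKM in the others. Fech, ferrochelatase, which inserts iron to complete haem, measured 93.4 RPKM there and 11.9 to 25.2 RPKM in the others. Tmem14c, a mitochondrial porphyrin carrier and the most abundant of the list, did not share this pattern, with 76.0 RPKM in non-Dbx1 replicate 1 and 42.2 to 107.9 RPKM in the others. Alas1, the housekeeping counterpart of Alas2, measured 5.32 RPKM there and 1.37 to 7.77 RPKM in the others.

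Of the 4 other globin genes above 0, 2 were highest in non-Dbx1 replicate 1, Mb and Hbq1b. Cygb, cytoglobin, a globin of many tissues, measured 25.2 RPKM in non-Dbx1 replicate 1 and 15.9 to 32.2 RPKM in the others. Mb, myoglobin, measured 12.1 RPKM there, 4.05 RPKM in Dbx1 replicate 2 and 0 in the remaining samples. Hbq1b, a theta globin, measured 2.97 RPKM there and at most 0.763 RPKM elsewhere. Hbq1a, Hbb-bh0 and Hbb-bh2 were listed at 0 in all samples. Ngb, neuroglobin, was highest in non-Dbx1 replicate 2, at 12.2 RPKM, and at most 0.0917 RPKM elsewhere.

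Of 16 listed red cell membrane and skeleton genes above 0, 8 were highest in non-Dbx1 replicate 1. The most abundant were Dmtn, dematin, with 41.7 RPKM there and 24.8 to 40.6 RPKM in the others, and Add2, beta adducin, with 11.2 RPKM there and 3.29 to 10.05 RPKM in the others. Among erythroid regulators, Klf1 and Nfe2, transcription factors of the red cell lineage, were listed at 0 in all samples. Gata1, a master regulator of the lineage, measured 0.897 RPKM in non-Dbx1 replicate 1 and at most 0.0962 RPKM elsewhere. Tfrc, the transferrin receptor, measured 17.2 RPKM there and 2.91 to 13.9 RPKM elsewhere, and Ldb1, a cofactor of GATA complexes, was not highest there.

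Of 7 regulators of globin switching, 2 were highest in non-Dbx1 replicate 1. Bcl11a, which represses embryonic globins in red cells and is also a neuronal factor, measured 11.2, 13.1 and 6.87 RPKM over the Dbx1 replicates, against 4.96, 7.19 and 3.42 RPKM over the non-Dbx1 replicates, with overlap. Lin28b, an RNA-binding protein of fetal stages, had an L2FC of -0.97 and an adjusted p of 0.942 by limma. Among late red cell genes, Prdx2, a peroxiredoxin that is also abundant in neurons, measured 110.04 RPKM in non-Dbx1 replicate 1 and 67.4 to 106 RPKM elsewhere. Hemgn, Car1 and Tspo2 of the same list were at 0 in all samples. Of 7 clearance genes above 0, 1 was highest in non-Dbx1 replicate 1, and Hmox2, a haem oxygenase, measured 10.8 RPKM there and 14.7 to 22.9 RPKM elsewhere. Blvra, a biliverdin reductase, measured 7.78 RPKM there and 6.17 to 12.9 RPKM elsewhere.

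**Figure D3:**
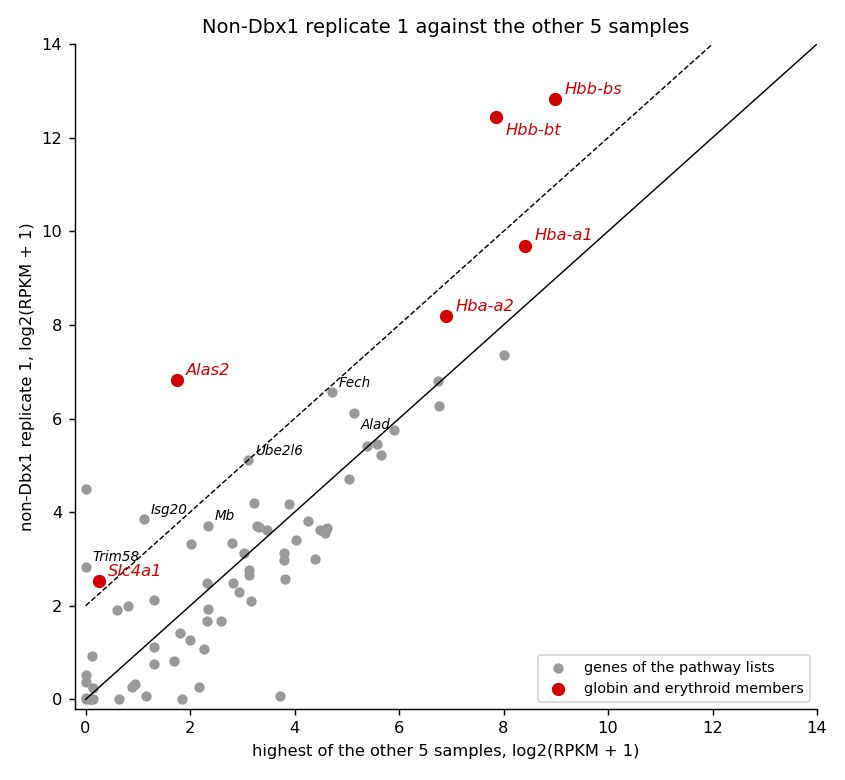
Log2(RPKM + 1) in non-Dbx1 replicate 1 (y axis) against the highest of the other 5 samples (x axis), for the 6 chosen genes that were detected (red) and the 67 list genes above 0 (grey). The solid line marks equal values and the dashed line 4-fold, and the genes above it include Alas2, Hbb-bt, Hbb-bs, Slc4a1, Trim58, Isg20 and Ube2l6.

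Markers of other cells also differed in non-Dbx1 replicate 1. The 8 oligodendrocyte lineage markers summed to 430.7 RPKM there and to 19.7 to 68.3 RPKM in the other 5 samples, with Mbp, a protein of myelin, at 155 RPKM. The platelet list summed to 33.4 RPKM there and to 0.678 to 18.4 RPKM elsewhere, nearly all of it Pf4, with Ppbp, Gp9 and Treml1 at 0 in all samples. The endothelial sum was instead highest in non-Dbx1 replicate 2, at 113.2 RPKM, against 6.28 RPKM in non-Dbx1 replicate 1 and at most 2.24 RPKM elsewhere. Cldn5 alone gave 63.7 RPKM of it. Pecam1 and Cdh5 of that list were not highest there, at 0.034 and 0.646 RPKM. Pecam1 reached 0.507 RPKM in Dbx1 replicate 2 and Cdh5 0.927 RPKM in Dbx1 replicate 3. White blood cell markers summed to 5.45 RPKM in non-Dbx1 replicate 1 and 0.186 to 25.5 RPKM elsewhere, with Camp at 0 throughout. Microglia and macrophage markers summed to 21.8 RPKM there and 0.202 to 47.6 RPKM elsewhere, with Tmem119 and Itgam at 0 throughout. Pericyte markers, of which Kcnj8 was at 0 throughout, stayed between 1.30 and 3.73 RPKM, and astrocyte markers between 21.4 and 39.5 RPKM. The part of such cells, or of blood, in the globin levels was not tested.

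**Figure D4:**
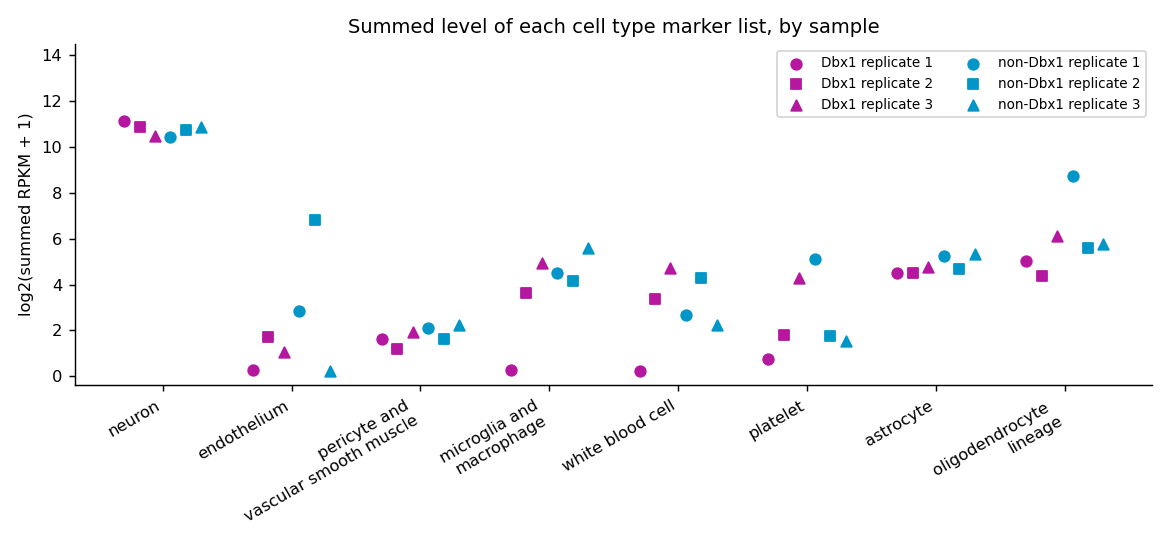
Log2(summed RPKM + 1) of each list of cell type markers in the 6 samples (magenta, Dbx1; cyan, non-Dbx1; circle, square and triangle for replicates 1, 2 and 3). Neuron markers are high in all samples, the oligodendrocyte lineage sum is highest in non-Dbx1 replicate 1 at 430.7 RPKM, and the endothelial sum is highest in non-Dbx1 replicate 2 at 113.2 RPKM.

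Non-Dbx1 replicate 1 was not the only sample with genes of its own. The number of genes at least 4-fold above the other 5 samples was 345 in non-Dbx1 replicate 1, 208 and 137 in non-Dbx1 replicates 2 and 3, and 100, 269 and 220 in Dbx1 replicates 1 to 3. At 16-fold it was 32 in non-Dbx1 replicate 1 and 3 to 15 in the others. Apart from the chosen genes, the 10 that stood out most in non-Dbx1 replicate 1 were Rps13-ps1, Fabp2, Fabp1, Mir7236, Gpr17, Gm27540, Gm25010, Snord92, Mir7056 and Gm24328. RPKM divides by exon length, so a short gene can stand out on few reads, and the reads of these 10 were not recovered. Fabp1 and Fabp2, the fatty acid binding proteins of liver and intestine, measured 35.2 and 39.9 RPKM there and were listed at 0 elsewhere. Gpr17, a receptor of developing oligodendrocytes, measured 55.4 RPKM there and at most 0.652 RPKM elsewhere.

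The genes with the pattern most like that of Hbb-bs were sought by Pearson's r of log2(RPKM + 1) over the 6 samples, among 13910 genes with a mean RPKM of at least 1. They were Hbb-bt (r = 0.994), Gm13181, Nat8l, Syf2, Lrfn4, Adam1a, Camsap2, Fgf18, Ythdf1 and Gm11655 (r = 0.974). With 6 samples and so many genes such values are a description only, and they rest on the range set by non-Dbx1 replicate 1. Over the 5 samples without it the list became Id1 (r = 0.998), Trmt1, Anapc5, Hba-a1, S100a10, Gm43076, Tmem168, Snf8, Ttc13 and Hba-a2 (r = 0.994). Hbb-bt then had r = 0.977. The r of Alas2 with Hbb-bs was 0.848 over all 6 samples and -0.068 over those 5.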

How the data were processed

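The authors amplified cDNA with a SMART-Seq kit, aligned single-end reads with TopHat2 to mm10, handled the alignments with SAMtools, counted reads on genes by name with HTSeq without strand, and deposited 1 RPKM value per gene name and sample, on exon length and reads on genes, with no scaling between samples. The annotation release is not given in the sources used here. The 9 genes and the gene lists were chosen with earlier results of these data known.

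Reads per gene were recovered as whole numbers, within 0.003 reads, at the annotated exon length where that gave them. Neither annotated length did so for Alas2 and Slc4a1, whose reads were set by the shortest length that gave whole reads in all samples and are thus lower limits. For the 4 adult globins the recovered length equalled the sum of all distinct exons in GENCODE vM21 with overlaps counted each time, so merged exon lengths were used between genes. Names matched 47214 of 49568 entries. The authors tested counts, which are not used here, so 3 Dbx1 samples were compared with 3 non-Dbx1 samples by limma 3.58.1 (R 4.3.3; mean-variance trend, Benjamini-Hochberg threshold 0.1) on log2(RPKM + 1) over 17614 genes above 0 in at least 3 samples. Replicates came from different mice. The fit was tested on simulated data, with changes given to genes with many reads. It recovered 18 of 100 genes at a log2 change of 2 and 83 of 100 at 4, and called 10 unchanged genes. A gene that was not called is thus not shown to be unchanged. Alternatives were a pseudocount of 0.1, other filters, size factors, quantile normalization, no trend, a replicate block and each sample left out. Merged exon lengths and 50-base stretches were added after seeing the data.

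Named genes were the 9 genes, list genes past the threshold, the 2 of each list with the highest mean RPKM, the 10 most like Hbb-bs and the 10 that stood out most in non-Dbx1 replicate 1. Others were named after their values were seen, and some genes are not reported here. Python 3.11.15, numpy 2.4.6, pandas 2.3.3, scipy 1.17.1 and matplotlib 3.10.9 were used.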

Additional observations from a re-analysis of the deposited data

How the results depend on the processing

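The count of genes called between the groups by limma was 1, and was 0 with a pseudocount of 0.1, 0 with all genes above 0 in at least 1 sample, 3 without the trend, and 0 to 1 with each sample left out. Without non-Dbx1 replicate 2 the 1 gene called was higher in Dbx1 samples, and without non-Dbx1 replicate 3 the count was 0. With the replicate number as a block it was 0, but the numbers did not pair the samples: same-numbered samples had correlations of deviations of -0.11, 0.025 and -0.052. No list gene was called under any of the 13 settings, the replicate block included. For the 6 genes detected, 52 of 54 alternative L2FC values kept their sign and moved by less than the SD between replicates. The exceptions were Alas2 (0.51) and Slc4a1 (0.059) without non-Dbx1 replicate 1, and with each sample left out these ranged from -2.73 to 0.51 and from -1.20 to 0.059. The SD used as the limit includes non-Dbx1 replicate 1 and is wide, at 1.87 for Hbb-bs and 2.33 for Hbb-bt. Large moves can thus lie within it, such as Hbb-bt from -4.07 to -2.38 without that sample. The log2 ratio of the summed adult globins in non-Dbx1 replicate 1 over the next sample, 3.54, was 1.28 for alpha globins only and 4.12 for beta globins only. It was 3.54 to 4.25 with each other sample left out, which can only keep or raise a ratio to the highest remaining sample. The cause of these changes was not tested. Depth limits Alas2 and Slc4a1 outside non-Dbx1 replicate 1, where they rest on 8 to 57 and 0 to 8 reads.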
